A study of Mus musculus with 4 samples.

Results

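Eomes, Foxc2, Lhx2, Pdx1, Prrx2, Barx1 and Shisa6 are 7 genes associated with spermatogonial stem cells. They are not among the 8 GDNF targets chosen for this report and listed below. GDNF is the niche factor that acts through the receptor subunit encoded by Gfra1. Whether they are among the GDNF-responsive genes that the study used was not checked. The 7 genes were taken by symbol from the gene annotation of the count matrices, and all 7 were among the 27514 genes present in the 4 libraries. Single-cell RNA-seq (10x 3' counts) had been made from undifferentiated spermatogonia (A_undiff) of adult wild-type C57BL/6J mice aged 6-8 weeks. CTRL mice were untreated. BU mice received 1 dose of 10 mg/kg busulfan, an alkylating drug that kills part of the spermatogonia, A_undiff included, and were taken at day 10. Each of the 4 libraries (CTRL1 and BU1 in experiment 1, CTRL2 and BU2 in experiment 2) pooled cells of 3 mice sorted as E-cadherin+, CD49f+ and c-KIT-negative, so the spread between mice is not visible and a group is 2 pools. Of 9229 cells, 7493 had more than 1000 genes and a mitochondrial share of UMIs below 20% and were kept. A cell counted as Gfra1+ when its Gfra1 UMIs, scaled to 100000 per cell, gave ln(1 + value) greater than 2, which 2194 cells did.

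A_undiff hold the stem cells of the testis together with the progenitors that those cells form. Gfra1 marks a stem-enriched fraction, and cells lose it as they become progenitors that carry Neurog3, Sox3 and Rarg. Of the members, 6 encode DNA-binding transcription factors that are best known from embryonic patterning. Eomes is a T-box factor of trophoblast, mesendoderm and lymphocytes. Foxc2 is a forkhead factor of mesenchyme and lymphatic vessels. Lhx2 is a LIM-homeodomain factor of forebrain, eye and hair follicle stem cells. Pdx1 is the homeodomain factor of pancreas formation, Prrx2 a paired-related homeodomain factor of limb and facial mesenchyme, and Barx1 a homeodomain factor of stomach and tooth. Shisa6 is not a transcription factor, although it shares the label with the others: it encodes a transmembrane protein known as an auxiliary subunit of glutamate receptors and, in the testis, as a marker of some undifferentiated cells.

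On GRCm38 the genes lie on different chromosomes except for Lhx2 and Prrx2. Eomes is at chr9:118478212-118486132, Foxc2 at chr8:121116171-121118895, Lhx2 at chr2:38339281-38369733, Prrx2 at chr2:30834972-30881251, Pdx1 at chr5:147269959-147275848 and Barx1 at chr13:48662998-48666507, all on the plus strand. Shisa6 is at chr11:66211725-66525964 on the minus strand. Since several members were found in the same cells, the sequence just upstream of their start sites is shown to let the promoters be set side by side. Promoters of 5 of the 7 members were found in RefSeq (GRCm38.p6), among 32851 in all, and the 250 bases before the start were searched on both strands for GGGCGG (the GC box), CCAAT (the CCAAT box), TATAAA (the TATA box) and TAATTA (a homeodomain core). Capitals mark the matches, and each run stops at the first base that the annotation places in an exon. The Eomes promoter is chr9:118477939-118478188, the Lhx2 promoter chr2:38339031-38339280, the Barx1 stretch chr13:48662786-48662997 and the Pdx1 stretch chr5:147269847-147269958, plus strand in each case. The Prrx2 window (chr2:30845117-30845366) lies inside the gene coordinates above, starts inside an exon of the annotation and is not printed. Another Lhx2 window (chr2:38351058-38351307) also starts inside an exon and is not printed. It had 68.4% G and C and none of the motifs.
Eomes: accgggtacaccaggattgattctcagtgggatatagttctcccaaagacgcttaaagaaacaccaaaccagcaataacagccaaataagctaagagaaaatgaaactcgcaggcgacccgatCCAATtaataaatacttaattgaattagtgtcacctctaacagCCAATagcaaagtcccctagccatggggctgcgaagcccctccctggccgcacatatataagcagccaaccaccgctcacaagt
Lhx2: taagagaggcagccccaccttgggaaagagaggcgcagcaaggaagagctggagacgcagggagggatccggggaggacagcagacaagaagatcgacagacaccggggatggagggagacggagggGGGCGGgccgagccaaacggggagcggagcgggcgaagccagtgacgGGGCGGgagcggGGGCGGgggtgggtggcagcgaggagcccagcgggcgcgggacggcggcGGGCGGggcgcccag
Barx1: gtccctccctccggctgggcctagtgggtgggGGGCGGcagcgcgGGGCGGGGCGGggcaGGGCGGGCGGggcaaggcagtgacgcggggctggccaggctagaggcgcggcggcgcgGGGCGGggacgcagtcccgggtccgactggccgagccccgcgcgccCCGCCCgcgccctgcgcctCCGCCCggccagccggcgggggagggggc
Pdx1: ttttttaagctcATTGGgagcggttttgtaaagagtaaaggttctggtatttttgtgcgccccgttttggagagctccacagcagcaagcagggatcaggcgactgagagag
The 5 promoters, taking only the printed window for Lhx2, differed in composition. G and C made up 85.6% of the Barx1 window, 72.8% of the Lhx2 window, 70% of the Prrx2 window, 54.8% of the Pdx1 window and 46.4% of the Eomes window, against a median of 52.4% over all promoters. GGGCGG occurred 8 times for Barx1, some of them overlapping, 4 times for Lhx2 and 2 times for Prrx2, and 32.7% of all promoters held it. CCAAT occurred 2 times each for Eomes and Pdx1, with 1 of the Pdx1 matches past the printed stretch, and was in 33.8% of all promoters. TATAAA and TAATTA were in none of these windows and in 12.4% and 4.84% of all promoters. Only exact letters were counted, so the tatataag near the end of the Eomes stretch, a variant of the TATA box, is not marked. No motif was shared by the 5. A match is only a run of letters and says nothing of binding.

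The libraries differed in ways that bear on the values below. The kept cells numbered 3101, 1120, 2008 and 1264 in CTRL1, CTRL2, BU1 and BU2, with medians of 8051, 30845, 9848 and 34023 UMIs. Cells of experiment 2 thus held over 3 times the UMIs by the median. The experiments also differ in kit version by the labels, so kit and sequencing cannot be told apart here. CTRL2 and BU2 shared 677 cell barcodes. Of these, 70 were kept in both, and 45 kept CTRL2 cells and 25 kept BU2 cells were shallow copies whose barcode had a median of 73.9 and 60.2 times as many UMIs in the other library. Leaving the copies out changed no call for a member in any comparison. CTRL1 and BU1 shared 11 barcodes. The 6 markers of A_undiff (Zbtb16, Sall4, Foxo1, Ddx4, Cdh1, Itga6) were present in each library and together made 595 to 838 CPM (UMIs of a gene per 1000000 UMIs of the library). The 6 spermatid markers made 2805 and 17015 CPM in CTRL1 and CTRL2 and 1001 and 8691 in BU1 and BU2. The 12 somatic markers, Cyp17a1, Insl3 and Acta2 among them, made 21.7 and 238 CPM in CTRL1 and CTRL2. In BU1 and BU2 they made 23.5 and 95.3. Within CTRL2 they made 128 CPM in Gfra1+ and 261 in Gfra1-negative cells. Kit and Stra8, which come on with differentiation, made 65.5 and 46.5 in the CTRL and 189 and 116 in the BU libraries. Lymphocyte markers, relevant because T and NK cells use Eomes, made 1.30 to 4.72 CPM with Ncr1 at 0 in each library, and endothelial markers, relevant to Foxc2, made 4.77 to 5.89.

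Across all kept cells of the A_undiff sort, levels of 5 members were higher in both BU libraries than in either CTRL library. The ratio of BU to CTRL within each experiment was highest for Prrx2 and next for Shisa6, which has few UMIs, while Foxc2 and Pdx1 overlapped between the groups. The comparison asked whether these genes are altered in the population that rebuilds the germline after busulfan. Levels are CPM after TMM scaling, summed over the cells of a library. In such sums, more cells with a transcript and more transcripts per cell cannot be told apart. A level is compared between libraries for 1 gene and not between genes.

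Prrx2 stood at 21.5 and 13.8 CPM in CTRL1 and CTRL2 and at 75.4 and 63.7 in BU1 and BU2. Both BU libraries were thus above both controls, by 3.51 times within experiment 1 and 4.60 times within experiment 2. Barx1 stood at 30.6 and 24.6 in the CTRL and 66.5 and 88.3 in the BU libraries. Its ratio was 2.17 in experiment 1 and 3.59 in experiment 2, again without overlap. Lhx2, at 23.7 and 22.5 in the CTRL libraries, was the member whose controls were closest to each other, and it reached 46.5 and 59.0 in BU. Shisa6, a gene with few UMIs, stood at 0.733 and 0.601 against 2.1 and 2.61, with ratios of 2.86 and 4.34. Its counts were 19 and 24 UMIs in the CTRL libraries and 43 and 137 in the BU libraries, so its level carries the largest counting error.

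Eomes did not overlap between the groups either, but its controls differed from each other. It stood at 12.3 in CTRL1 and 4.63 in CTRL2, and at 21.6 and 18.5 in BU1 and BU2. The BU over CTRL ratio was 1.76 in experiment 1 and 4.0 in experiment 2. Foxc2 showed the same gap between controls, with 54.2 in CTRL1 and 24.0 in CTRL2, and its BU values of 56.7 and 41.1 overlapped them. Pdx1 stood at 7.83 and 4.51 in the CTRL and 5.95 and 4.71 in the BU libraries, and its ratio was 0.759 in experiment 1 and 1.04 in experiment 2. That 5 of 7 members lay above without overlap compares with 19.9% of the 17354 genes tested. No member lay below both controls, which 13.5% of the genes did.

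**Figure D1:**
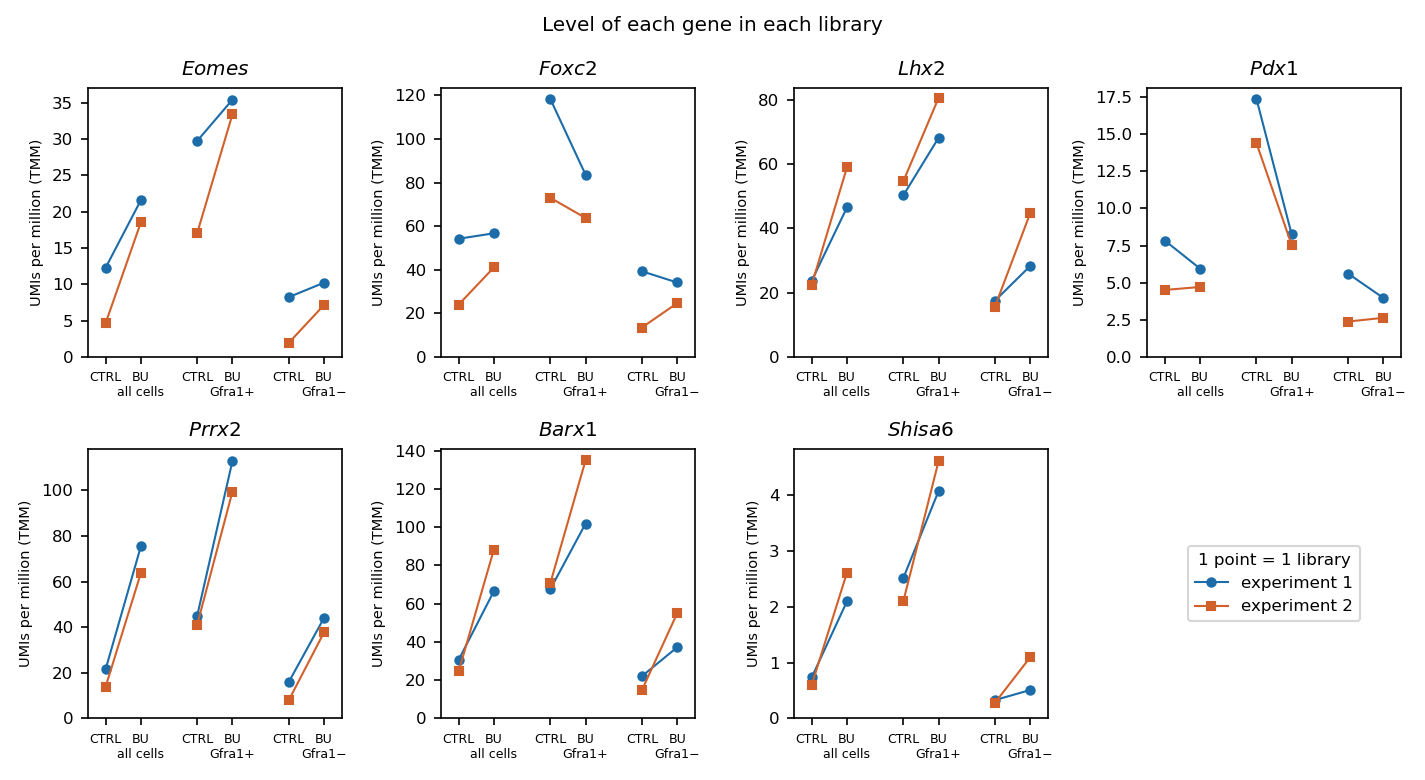
Level of each member (CPM after TMM scaling, linear axis from 0) in CTRL and BU libraries for all cells, Gfra1+ cells and Gfra1-negative cells. Each point is 1 library and lines join the libraries of 1 experiment. Prrx2, Barx1, Lhx2 and Shisa6 are higher in both BU libraries in all 3 sets of cells, whereas Pdx1 is lower in both BU libraries in Gfra1+ cells (8.26 and 7.54 against 17.4 and 14.4). Shisa6 in Gfra1-negative cells rests on 7, 9, 6 and 30 UMIs in CTRL1, CTRL2, BU1 and BU2.

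In the edgeR quasi-likelihood test with no term for the experiment, no gene passed a Benjamini-Hochberg adjusted p of 0.05 in all cells (0% called, 926 genes at an unadjusted p under 0.05), and DESeq2 called 119 (0.686%). The log2 fold changes of the members were 1.98 ± 0.36 (SE) for Prrx2, 1.82 ± 0.52 for Shisa6, 1.49 ± 0.32 for Barx1, 1.25 ± 0.57 for Eomes, 1.19 ± 0.30 for Lhx2, 0.32 ± 0.50 for Foxc2 and -0.21 ± 0.46 for Pdx1 (n = 2 libraries a group). The median over all genes was 0.07. The sign of Foxc2 turned without CTRL2 (-0.15) and without BU1 (-0.10), and that of Pdx1 without CTRL1 (0.21). The 2 libraries of an experiment share a kit and a sequencing lane by the labels, and with the experiment as a replicate block 258 genes passed (1.49%), of which 111 were higher (0.64%) and 147 lower (0.847%) in BU. Prrx2 rose in that fit by a log2 fold change of 2.01 ± 0.24 (edgeR quasi-likelihood test, adjusted p = 0.0289), and Barx1 rose by 1.48 ± 0.26 (adjusted p = 0.0484). Lhx2, Shisa6 and Eomes had adjusted p of 0.0682, 0.0822 and 0.0994 in the same edgeR fit, and Foxc2 and Pdx1 had 0.425 and 0.809. DESeq2 with no block called Prrx2 (adjusted p = 0.0299) and gave Barx1 an adjusted p of 0.147. The share of Gfra1+ cells also differed between the groups, at 18.9% and 19.1% in the CTRL and 43.1% and 41.9% in the BU libraries. In the blocked fit Kit and Stra8 were both called higher and 3 of the 6 spermatid genes lower. Leaving out cells with Kit, spermatid or somatic marks, the blocked edgeR fit called 2.84% of the genes (0.775% higher in BU). Prrx2 and Barx1 were again among them, at adjusted p of 0.00537 and 0.0259 by the edgeR quasi-likelihood test. The calls were near the threshold: in the blocked edgeR fit without likely doublets the adjusted p was 0.0510 for Prrx2 and 0.0711 for Barx1, and with a mitochondrial share under 10% it was 0.0441 and 0.0687. RLE scaling or no filter on low counts, each with the block, called both genes and also Eomes, Lhx2 and Shisa6 (lowest adjusted p in edgeR of 0.0187, 0.0163 and 0.0257). These settings called 7.06% (2.62% higher) and 4.45% (2.07% higher) of the genes tested, in that order.

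**Figure D2:**
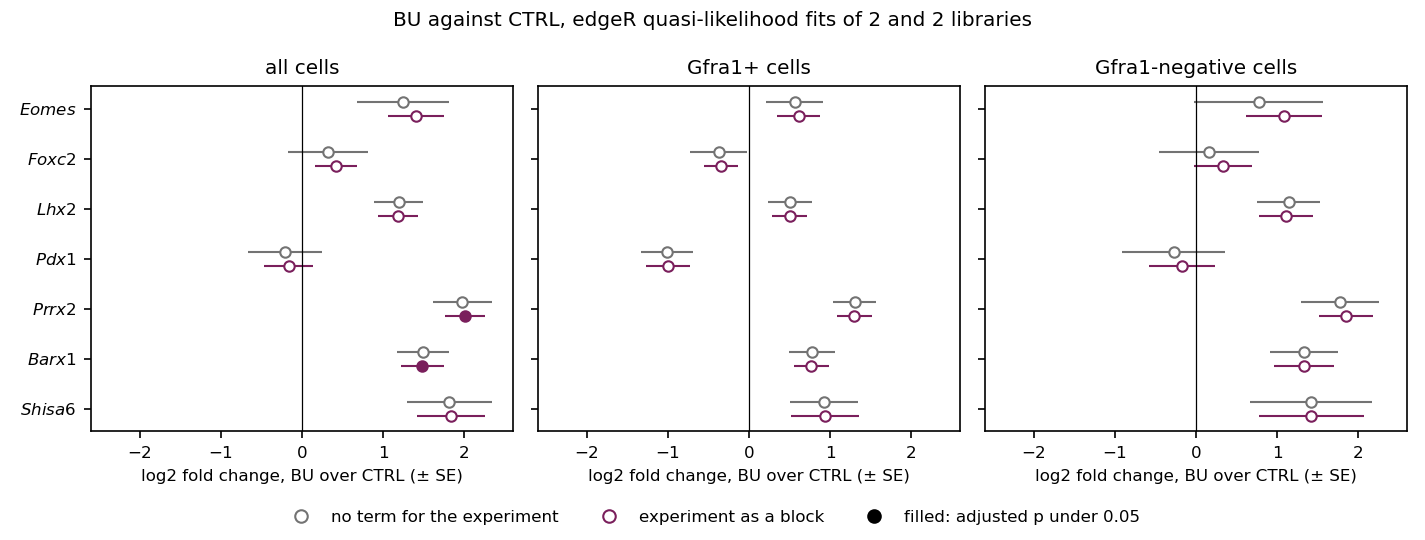
Log2 fold change of BU over CTRL (points, with SE as bars) for each member in all cells, Gfra1+ cells and Gfra1-negative cells, from edgeR quasi-likelihood fits without (grey) and with (purple) the experiment as a block. Filled points have an adjusted p under 0.05, and only Prrx2 and Barx1 in all cells with the block are filled.

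Within Gfra1+ cells the members differed from each other in direction. Prrx2, Barx1, Lhx2, Eomes and Shisa6 were higher in both BU libraries than in both controls, Pdx1 was lower in both, and Foxc2 overlapped. This comparison asks whether the genes differ among cells called Gfra1+, so the larger share of such cells in BU does not enter directly. The make-up of that class can still differ between BU and CTRL, and its part was not tested. The 5 of 7 upward compare with 15.9% of the 13632 genes tested and 1 of 7 downward with 16%. The fold changes upward were smaller than in all cells. Other genes also differed between BU and CTRL within these cells. All 7 progenitor genes were lower (median log2 fold change of -1.36), all 6 mitotic genes were higher (median 0.89), 5 of 6 spermatid genes were lower (median -1.06) and Kit was at 1.83, with none of these called by the edgeR quasi-likelihood test and 1 progenitor gene called lower with the block. Their part in the members' values was not tested.

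Prrx2 stood at 45.1 and 41.1 CPM in Gfra1+ cells of CTRL1 and CTRL2 and at 113 and 99.5 in those of BU1 and BU2. The 2 experiments gave nearly the same ratio, 2.51 and 2.42. Barx1 went from 67.5 and 70.6 in the controls to 102 and 135, and Lhx2 from 50.3 and 54.7 to 68.3 and 80.7. For both, the controls lay closer to each other than to either BU library. Shisa6 stood at 2.52 and 2.1 against 4.07 and 4.61. Eomes stood at 29.8 and 17.1 in the controls and 35.4 and 33.4 in BU, and the gap between its controls was larger than that between CTRL1 and either BU library.

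Pdx1 had the opposite order. It stood at 17.4 and 14.4 in Gfra1+ cells of the CTRL libraries and at 8.26 and 7.54 in those of the BU libraries, with a ratio of 0.475 in experiment 1 and 0.523 in experiment 2. The values rest on 83 and 103 UMIs in the controls and 75 and 175 in BU. Foxc2 stood at 118 and 73.0 against 83.7 and 63.8, lower in BU within each experiment (ratios of 0.707 and 0.873) but overlapping between the groups, with both values of experiment 1 above those of experiment 2.

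No gene was called in Gfra1+ cells by the edgeR quasi-likelihood test (0%, 586 at an unadjusted p under 0.05), 10 were called with the replicate block (0.0734%, with 0.044% higher and 0.0293% lower) and 15 by DESeq2 (0.11%, with 0.0587% higher and 0.0513% lower). No member was among them. Prrx2 had a log2 fold change of 1.30 ± 0.27 (SE), with an adjusted p of 0.0560 in the blocked edgeR fit and 0.0703 by DESeq2. Pdx1 had -1.01 ± 0.32, and its adjusted p in the blocked edgeR fit was 0.187. The other values were 0.92 ± 0.42 for Shisa6, 0.78 ± 0.28 for Barx1, 0.56 ± 0.35 for Eomes, 0.50 ± 0.27 for Lhx2 and -0.38 ± 0.35 for Foxc2. With the block and a Gfra1+ cell taken as any cell with a Gfra1 UMI, 476 genes (3.15%, with 1.53% higher) were called in the edgeR fit. Prrx2, at an adjusted p of 0.00133 in that edgeR fit, and Barx1, at 0.0305, were among them. That setting raised the number of cells to 396 in CTRL2 and 786 in BU2 from 214 and 529.

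In Gfra1-negative cells, 4 members (Prrx2, Barx1, Lhx2 and Shisa6) were again higher in both BU libraries, beside 19.5% of 16997 genes, and none was lower in both, beside 12.9%. Prrx2 stood at 16.0 and 7.99 in the controls and 44.1 and 37.8 in BU. Barx1 stood at 22.0 and 14.7 against 37.2 and 54.9, and Lhx2 at 17.5 and 15.6 against 28.3 and 44.7. Eomes (8.23 and 1.94 against 10.2 and 7.15), Foxc2 (39.3 and 13.4 against 34.1 and 24.6) and Pdx1 (5.61 and 2.38 against 3.97 and 2.63) overlapped. No gene was called with or without the block in the edgeR quasi-likelihood test (0%, 803 at an unadjusted p under 0.05 without it), and DESeq2 called 59 (0.347%) with no member among them. Gfra1-negative cells of experiment 1 held 0.608 (CTRL1) and 4.22 (BU1) Gfra1 CPM and those of experiment 2 held 7.93 and 16.5. A single Gfra1 UMI passed the threshold in 96.9% and 90.3% of CTRL1 and BU1 cells but in only 17.0% and 13.9% of CTRL2 and BU2 cells.

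The difference between the BU effects of Gfra1+ and Gfra1-negative cells was tested as an interaction. The edgeR quasi-likelihood test called no gene (0% of 16753, 810 at an unadjusted p under 0.05). All 7 members had a smaller or more negative BU effect in Gfra1+ cells, by a log2 difference of -0.41 ± 0.49 (SE) for Eomes to -0.77 ± 0.46 for Pdx1, beside a median of -0.05 over all genes, and the lowest adjusted p of a member was 0.938. The 7 members are not independent of each other here, since they share libraries and cells. Leaving out CTRL2 turned the difference of Eomes to 0.20, leaving out BU2 turned that of Shisa6 to 0.16, and taking any cell with a Gfra1 UMI as Gfra1+ turned it to 0.14.

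All 7 members had higher levels in Gfra1+ than in Gfra1-negative cells in each of the 4 libraries, with ratios from 1.74 to 8.34. This comparison asks how closely each gene follows the stem-enriched fraction, and a gene was higher in Gfra1+ cells of the 4 libraries in 24.1% of 15187 genes tested. Shisa6 was at 2.47 and 2.06 CPM in Gfra1+ cells of CTRL1 and CTRL2 against 0.331 and 0.288 in Gfra1-negative cells, and at 4.06 and 4.55 against 0.499 and 1.12 in BU1 and BU2. Its ratio was 7.47, 7.18, 8.15 and 4.06 in that order, from only 7, 9, 6 and 30 UMIs in the Gfra1-negative cells. Eomes had ratios of 3.52, 8.34, 3.52 and 4.50. CTRL2 gave the highest ratio of every member but Shisa6.

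Pdx1 had ratios of 3.01 and 5.76 in the CTRL and 2.11 and 2.76 in the BU libraries. For Foxc2 they were 2.93 and 5.16 in CTRL and 2.49 in each BU library, for Barx1 2.98 and 4.56 against 2.78 and 2.37, and for Prrx2 2.74 and 4.89 against 2.6 and 2.54. Lhx2 had the lowest ratio in CTRL2 and BU2, with 2.80 and 3.32 in CTRL and 2.45 and 1.74 in BU. In the edgeR quasi-likelihood test with the library as a block, 3514 genes were called (23.1%), of which 1500 were higher in Gfra1+ cells (9.88%). All 7 members were called higher, as they were by DESeq2, which called 30.1% of the genes (14.4% higher). The edgeR fit gave log2 fold changes of 2.58 ± 0.29 (SE) for Shisa6, 2.19 ± 0.24 for Eomes, 1.67 ± 0.27 for Pdx1, 1.63 ± 0.20 for Foxc2, 1.61 ± 0.16 for Barx1, 1.61 ± 0.18 for Prrx2 and 1.32 ± 0.16 for Lhx2, with adjusted p of 0.0134 to 0.0196. The test depends on CTRL2: without it the edgeR fit called 0 genes (4043 at an unadjusted p under 0.05), with 1.18 (Lhx2) to 2.53 (Shisa6) for the members and adjusted p of 0.0652 to 0.0918. Without BU2 it called 636 genes and Pdx1 had an adjusted p of 0.0509. With no library block, 6.02% of the genes were called (0.876% higher, 5.15% lower), and Lhx2, Barx1 and Prrx2 were not called (adjusted p of 0.0656, 0.0598 and 0.151 in edgeR). Spermatid markers were lower in Gfra1+ cells, with 6 of 6 called, at 496 to 2420 CPM in Gfra1+ and 1405 to 20120 in Gfra1-negative cells, and their part in the ratios was not tested. Leaving out cells with Kit, spermatid or somatic marks, 2185 genes were called (15.1%, with 7.16% higher). All 7 members were still called higher in that fit. Of the lymphocyte markers only Cd3e could be tested, and it was called higher in Gfra1+ cells. The list made 2.79 to 5.78 CPM there and 0.822 to 3.80 in Gfra1-negative cells, and its part in the Eomes ratio was not tested.

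**Figure D3:**
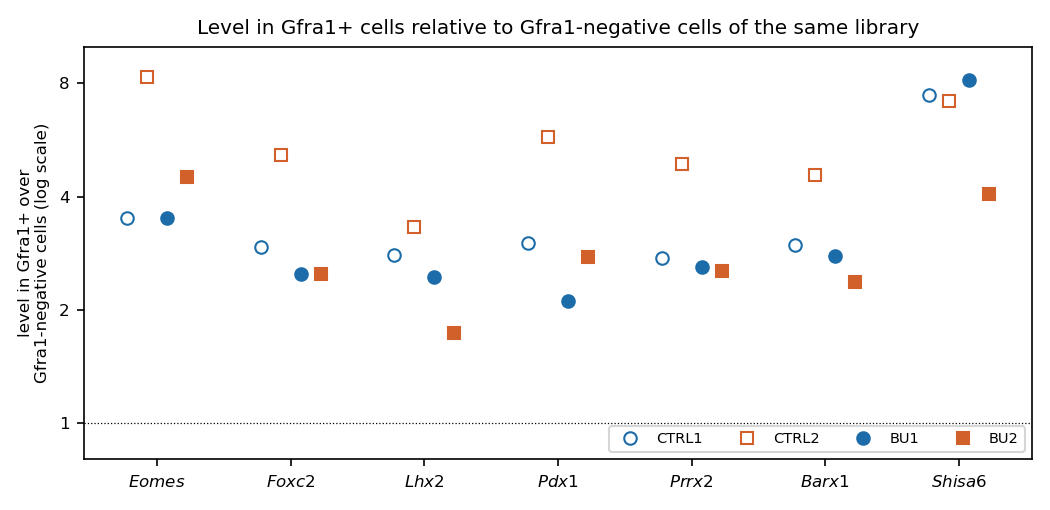
Ratio of each member's level in Gfra1+ cells to that in Gfra1-negative cells of the same library (log axis, 1 point a library, open symbols CTRL, filled symbols BU). All 28 ratios lie above 1, from 1.74 for Lhx2 in BU2 to 8.34 for Eomes in CTRL2.

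Cells were next compared at 1 depth, each thinned to 5000 UMIs, so that shares of cells with a UMI could be set side by side. At this depth 2825, 1006, 1928 and 1169 cells remained in CTRL1, CTRL2, BU1 and BU2, and 276, 114, 80 and 95 shallower cells were left out. Prrx2 was detected in 8.74% and 7.95% of cells in the CTRL and 24.1% and 24.6% in the BU libraries. Barx1 was detected in 11.5% and 9.34% against 22.1% and 27.9%, and Lhx2 in 9.70% and 10.7% against 19.6% and 23.1%. Eomes was found in 5.98% and 3.18% of CTRL and 10.2% and 8.30% of BU cells. Shares were thus higher in both BU libraries for these 4 genes, as they were for Shisa6 (0.389% and 0.199% against 1.40% and 1.2%).

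Pdx1 was the member found in fewer BU cells, with 3.96% and 2.39% in the CTRL and 2.18% and 1.71% in the BU libraries. CTRL2 and BU1 lay close to each other, from 24 of 1006 and 42 of 1928 cells. Thinned to 3000 UMIs, these 2 libraries stood at 1.83% and 1.82%. Foxc2 overlapped, at 20.2% and 13.0% against 22.8% and 19.3%. Leaving out cells with Kit, spermatid or somatic marks, it did not, at 20.4% and 14.6% against 23.3% and 23.4%. Over all thinned cells, the groups did not overlap for 6 of 7 members, 5 higher and 1 lower in BU. Of the 16828 genes found in at least 10 thinned cells, 17.9% were higher and 14.7% lower in this way. Each of the 6 members had an exact permutation p of 0.333 (two-sided, n = 2 libraries a group), which is the smallest that 2 against 2 can give, and no share reached 0.05. Unthinned, at the unequal depths, 5 of 7 did not overlap: Pdx1 overlapped and its difference changed sign, with BU 1.31 points above CTRL, Lhx2 overlapped (14.9% and 33.1% against 31.7% and 62.9%) and Foxc2 no longer did. Among thinned Gfra1+ cells, Prrx2 was in 17.9% and 20.6% of CTRL and 34.2% and 33.7% of BU cells, Pdx1 in 8.46% and 7.18% against 3.18% and 3.24%, and Foxc2 in 45% and 33.0% against 33.4% and 27.6%. In Gfra1+ cells 4 members were higher and 1 (Pdx1) lower in both BU libraries, beside 12.1% and 18.3% of 13913 genes, and Eomes and Foxc2 overlapped. Positive cells held a mean of 1.03 to 1.79 UMIs over members and libraries, and the most in any cell was 8 for Barx1 in BU2.

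Shares in spermatid-marked cells, which should lack these genes, were taken as a background. Of the cells of CTRL2 in which spermatid markers made at least 5% of UMIs, 80 had the thinned depth, and Eomes, Pdx1 and Shisa6 had a UMI in 0 of them, which allows a share of up to 3.75%. That limit lies above the share of each of these 3 genes over all CTRL2 cells, so it sets no background for them. Foxc2, Lhx2, Prrx2 and Barx1 were each found in 1.25%. In the 53 such cells of BU2 the first 3 genes were again at 0, which allows up to 5.66% and lies below the share over all BU2 cells for Eomes but not for Pdx1 and Shisa6. The other shares were 3.77% for Foxc2, Lhx2 and Prrx2 and 7.55% for Barx1. Each share found was below that over all cells of the same library. The 53 cells of BU2 with somatic marks are no such background, since 43.4% of them held Gfra1. In them Eomes, Foxc2 and Pdx1 were at 0, which allows up to 5.66%, Lhx2, Barx1 and Shisa6 were each in 1.89% and Prrx2 was in 5.66%. In the 171 Kit-marked cells of BU2, Barx1 was found in 16.4%, Lhx2 in 12.3%, Prrx2 in 11.7%, Foxc2 in 8.77%, Eomes in 6.43% and Pdx1 and Shisa6 in 1.17% each, where the last 2 rest on 2 cells.

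A UMI of a member and a UMI of Gfra1 occurred together more often than the product of their shares would give, in 28 of 28 combinations of member and library (ratios of 1.26 to 7.08). The highest was that of Shisa6 in CTRL2, from 2 cells. Other genes were not counted in this way, so the count is not known to be particular to the members. In CTRL1, where Gfra1 was found in 12.7% of thinned cells, it was found in 32.0% of Eomes cells (exact binomial 95% interval 25.0 to 39.6), in 31.2% of Foxc2 cells, 31.4% of Lhx2 cells, 29.5% of Pdx1 cells, 30.5% of Barx1 cells and 25.5% of Prrx2 cells. In BU2, where Gfra1 was found in 28.5% of cells, the shares were 42.3% for Eomes (32.3 to 52.7), 50.0% for Pdx1 (27.2 to 72.8) and 35.9% for Barx1 (30.7 to 41.4). These intervals cover counting error only. For the 6 members other than Shisa6, the ratios were 2.00 to 2.51 in the CTRL and 1.26 to 1.76 in the BU libraries. This ratio cannot exceed 1 over the share of cells with Gfra1, so its ceiling was lower in BU. The groups can therefore not be ranked by it. By the level rule used for Gfra1, there were 246, 30, 292 and 122 Eomes+ cells in CTRL1, CTRL2, BU1 and BU2, and 18.6%, 11.7%, 24.1% and 18.5% of Gfra1+ cells were Eomes+. A single UMI passes that rule in 96.9% and 90.3% of CTRL1 and BU1 cells. It does so in only 17.0% and 13.9% of CTRL2 and BU2 cells, so these numbers cannot be compared between the experiments.

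The members were also found with each other. Of the 21 pairs, 19 were seen together in more thinned cells than the product of their shares in each of the 4 libraries, and the other 2 (Eomes or Pdx1 with Shisa6) rested on 11 and 3 cells. Pairs of other genes were not counted in this way. Summed over libraries the observed number was 1.62 to 2.58 times the expected one. The highest ratios belonged to Pdx1 with Prrx2 (69 cells against 26.7 expected, 2.58) and Pdx1 with Barx1 (76 against 30.0, 2.53). The lowest belonged to Foxc2, with Lhx2 at 1.62, with Prrx2 at 1.66 and with Barx1 at 1.69. A common gene such as Foxc2 has a lower ceiling for this ratio than a rare one such as Pdx1. The order of the pairs is therefore no order of how closely they go together. Removing the cells with the highest doublet scores left 19 pairs above 1 in the 4 libraries.

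Within Gfra1+ cells the pairs were nearer to the expected number. The ratios there were 1.07 to 1.61 with a median of 1.36, and 15 of 21 pairs lay above 1 in the 4 libraries. Prrx2 with Barx1 remained at 1.43 (276 cells against 193), Eomes with Barx1 at 1.47 (141 against 96.2) and Eomes with Prrx2 at 1.42 (128 against 90.3). Eomes with Pdx1, at 1.07 from 16 cells against 14.9, and Foxc2 with Prrx2, at 1.13 from 227 against 202, were near the expected number. Pairs are a description with no test, since cells of a library are not replicates and their detection shares a depth. Members were also found in larger shares of Gfra1+ cells than of all cells, which lowers the ceiling of the ratio there.

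**Figure D4:**
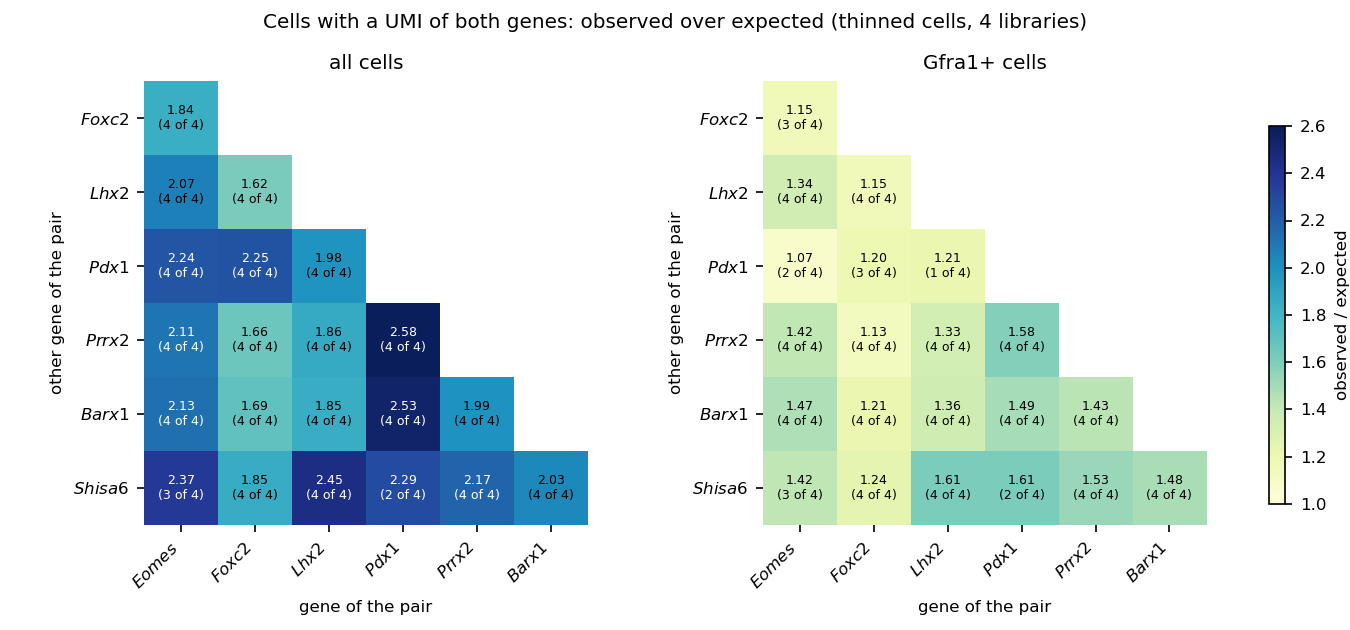
Number of thinned cells with a UMI of both genes over the number expected from the product of their shares, summed over the 4 libraries, for all cells (left) and Gfra1+ cells (right). In brackets is the number of libraries of 4 in which the ratio exceeded 1. Ratios run from 1.62 to 2.58 in all cells and from 1.07 to 1.61 in Gfra1+ cells.

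Counting how many of the 7 genes a thinned cell showed put these values together. At least 1 member was found in 37.1% and 29.0% of CTRL and 55.8% and 57.5% of BU cells, and 3 or more in 6.23% and 4.47% against 12.6% and 13.3%. Among Gfra1+ cells the groups lay closer, with at least 1 member in 69.2% and 65.6% of CTRL and 77.4% and 74.5% of BU cells. The share with none in Gfra1+ cells was 30.8% and 34.4% in CTRL and 22.6% and 25.5% in BU. No cell of any library showed more than 5 of the 7.

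**Figure D5:**
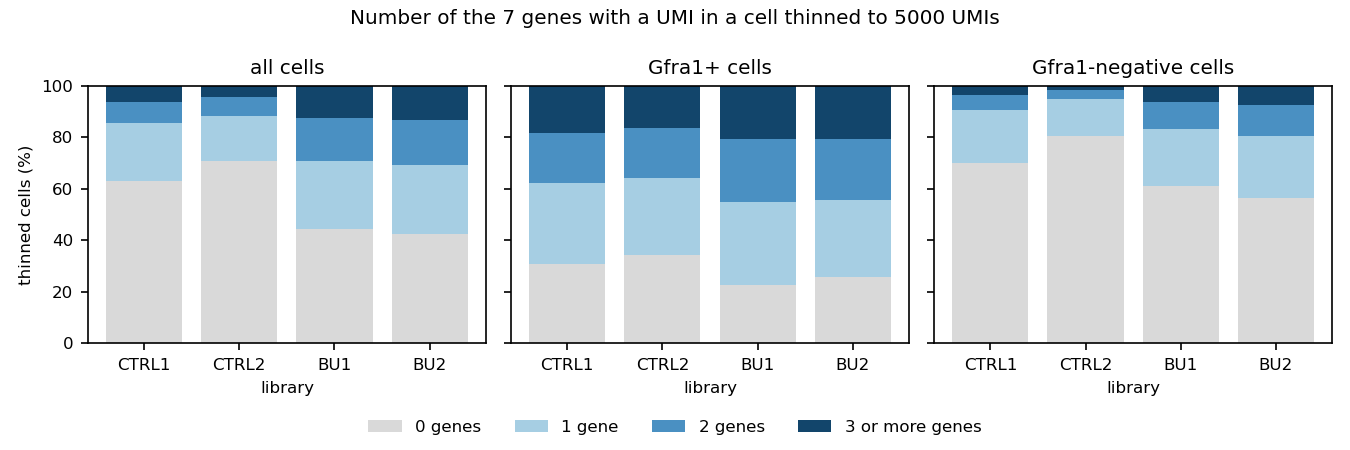
Share of thinned cells (percent, stacked to 100) with a UMI of 0, 1, 2, or 3 or more of the 7 genes, by library, in all cells, Gfra1+ cells and Gfra1-negative cells. In all cells, 3 or more genes were found in 6.23% and 4.47% of CTRL and in 12.6% and 13.3% of BU cells.

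Gfra1+ cells with a UMI of a member had lower summed levels of progenitor genes than the other Gfra1+ cells of the same library in 4 of 4 libraries for 6 of 7 members, although no test of this passed. The 7 progenitor genes (Neurog3, Rarg, Sox3, Upp1, Ddit4, Piwil4, Sohlh1) were summed. Cells with Barx1 held 286, 192, 122 and 95.3 CPM of them in CTRL1, CTRL2, BU1 and BU2, and Gfra1+ cells without it held 535, 378, 231 and 175. The ratio was 0.535, 0.508, 0.529 and 0.543, the narrowest range of any member. For Prrx2 it was 0.538 to 0.665, for Eomes 0.518 to 0.835, for Lhx2 0.522 to 0.782 and for Foxc2 0.507 to 0.999, lower in 4 of 4 libraries each time. Pdx1 cells were lower in 3 of 4 libraries, with a ratio of 1.04 in CTRL2 from 15 cells. Shisa6 was lower in 4 of 4, from 2 to 26 cells a library. Sohlh1 alone made 1389, 1035, 1326 and 2088 UMIs in Gfra1+ cells of CTRL1, CTRL2, BU1 and BU2 before thinning. The whole progenitor list made 2413, 2350, 1886 and 3725. Cells with a UMI of other genes were not compared in this way.

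The 8 GDNF target genes (Etv5, Bcl6b, Lhx1, Id4, Egr2, Egr3, Pou3f1, Ccnd2) ran the other way. Their summed level in Eomes cells over that in other Gfra1+ cells was 1.48, 1.57, 1.31 and 1.37, and for 6 of 7 members the ratio exceeded 1 in 4 of 4 libraries. Pdx1 was the exception, with 1.10, 0.963, 0.908 and 0.956. The sum is mostly Ccnd2. Before thinning, Ccnd2 made 4005, 4039, 11946 and 21320 UMIs in Gfra1+ cells of CTRL1, CTRL2, BU1 and BU2. The whole list made 5959, 6843, 16865 and 35356. The other targets were not summed without it. The 6 mitotic genes (Mki67, Top2a, Cdc20, Ube2c, Aurka, Aspm) were higher in 4 of 4 libraries for Prrx2 alone, with a mean log2 ratio of 0.21 ± 0.15 (SD, n = 4 libraries). An exact paired permutation test over 4 libraries cannot go below p = 0.125, and 0 of the 21 tests passed (lowest adjusted p = 0.202, two-sided).

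The genes most like each member were those with the highest mean Pearson correlation across thinned cells, over the 4 libraries, among the 9783 other genes found in at least 2% of cells of each library (9784 for Pdx1 and Shisa6). Ccnd2, a cyclin that drives spermatogonia into division and a listed GDNF target, came first for Eomes (mean r 0.22), Foxc2 (0.29) and Lhx2 (0.25). Eomes was followed by Lhx1, a LIM-homeodomain gene induced by GDNF, and Rasgrp2, an exchange factor for small GTPases, at 0.21 and 0.20. Foxc2 was followed by Rasgrp2 (0.26) and Tcl1, a coactivator of AKT (0.24), and Lhx2 by Lhx1 (0.25) and Tcl1 (0.23). Barx1 and Prrx2 were among the genes most like each other (0.27). Nefm, a neurofilament subunit, was the gene most like Barx1 (0.29) and the second for Prrx2 (0.27), and Ccnd2 completed both sets (0.28 and 0.27). Pdx1 was most like Barx1 (0.13), Nefm (0.12) and Zic1, a zinc-finger factor of neural patterning (0.11). Shisa6 had Lhx1, D430019H16Rik and Lonp2 at 0.10. Gfra1 ranked 5th for Shisa6, 11th for Foxc2, 14th for Lhx2, 18th for Barx1, 31st for Pdx1, 49th for Eomes and 59th for Prrx2. These correlations are weak in sparse counts and are a description only.

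Lists of related genes were described beside the members. In all cells with the replicate block, 6 of 7 progenitor genes were called lower and none higher (edgeR quasi-likelihood test, adjusted p under 0.05), from -1.01 for Sohlh1 to -3.59 for Upp1, with a median log2 fold change of -1.79 beside 0.04 over all genes. Of the GDNF targets, 3 of 8 were called higher (median 1.00, from 0.47 for Id4 to 2.43 for Lhx1). The other 8 stem-associated genes (Ret, Pax7, Erbb3, Nanos2, Bmi1, Nefm, Glis3, Utf1) were split, with 1 called higher and 1 lower, from 2.47 for Nefm to -1.88 for Utf1 and a median near 0. Of the mitotic genes 1 of 6 was called higher, and the median was 1.23. None of the 7 genes of the whole A_undiff population (those above and Dazl) was called, with a median of 0.02. The members lay among these lists, with 2 of 7 called higher and a median of 1.40. Of all genes tested in that fit, 0.64% were called higher and 0.847% lower. Between Gfra1+ and Gfra1-negative cells, 7 of 8 GDNF targets and 5 of 8 other stem-associated genes were called higher and Utf1 lower. There 5 of 7 progenitor genes were called lower, beside 9.88% and 13.3% of all genes tested.

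The nearest relatives of the members in their own families were mostly not measurable. Of 11 relatives (Tbr1, Tbx21, Foxc1, Lhx9, Prrx1, Barx2, Shisa7, Shisa8, Shisa9, Gsx1, Gsx2), 5 passed the filter on low counts in all cells, and none was called. Their log2 fold changes without the block ran from -1.23 for Lhx9 to 0.99 for Shisa8. In the Gfra1 comparison, 2 relatives passed the filter and both were lower in Gfra1+ cells, Shisa8 by -0.43 and Barx2 by -0.61, without a call.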

How the data were processed

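The authors made 10x Chromium 3' libraries from sorted A_undiff and deposited 1 matrix of raw UMI counts per library (Cell Ranger 3.0.2 per the file headers). The labels name GRCm39 and Seurat 3.2, and the study's methods name mm10, so coordinates here are those of GRCm38 and were not used to count. The labels give kit version 2 for experiment 1 and 3.1 for experiment 2, with both libraries of an experiment in 1 lane. The members, the gene lists and the tests were chosen with earlier results of these data known.

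The filter kept cells above 1000 genes and below 20% mitochondrial UMIs. The study also removed clusters of somatic cells, spermatids and Kit+ spermatogonia, which stayed in here except under the marker rule, so its cell numbers are of another set. Library totals were 26501134, 38363348, 20985157 and 52375136 UMIs for CTRL1, CTRL2, BU1 and BU2. Counts were summed per library and cell class and tested with edgeR 4.0.16 (quasi-likelihood, TMM scaling, default filter on low counts, Benjamini-Hochberg adjustment, threshold 0.05) in R 4.3.3, and DESeq2 1.42.0 was an alternative. Groups came from the sample titles. Since the libraries are pools of mice, p-values measure only spread between pools. Without the block this is the spread between 2 pools a group. With the block it is the spread between the BU effects of 2 experiments, which leaves a single residual degree of freedom. In the comparison of Gfra1+ with Gfra1-negative cells it is the spread of the differences within 4 libraries. The experiment numbers pair the libraries, as the labels give each experiment its own kit and lane, and deviations of the 2 libraries of an experiment correlated at 0.779 in all cells, 0.664 in Gfra1+ and 0.758 in Gfra1-negative cells. On simulated data with 200 of 17354 genes changed by a log2 value of 2, the test in all cells recovered 0% without and 75% with the replicate block. The simulated means and dispersion came from the blocked fit, so its advantage was built in and gives no reason to choose the block.

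Shares were taken after thinning each cell to 5000 UMIs, with 3000 UMIs as an alternative, and compared with exact permutation tests (scipy 1.17.1). The doublet caller (scrublet in scanpy 1.11.5) marked only 0.2% of cells by its own threshold, so the highest-scoring 0.8% per 1000 cells of a library (132 cells) were left out as an alternative, and doublets stayed in the main values. Genes named are the 7 members, the listed genes with the highest and lowest change in each list, and the 3 genes most like each member. Somatic-marked cells had at least 0.1% of UMIs from the somatic list and Kit-marked cells at least 3 Kit UMIs.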

Additional observations from a re-analysis of the deposited data

How the results depend on the processing

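In all cells the replicate block gave 258 genes called between BU and CTRL against 0, and with it 32 after doublet removal, 110 at a mitochondrial share under 10%, 477 under the marker rule, 264 without shallow copies, 1226 with RLE scaling and 1030 with no filter on low counts. DESeq2 without the block gave 119. In Gfra1+ cells the block gave 10, and with it 58, 101, 1 and 3 under the first 4 of those settings, 6 with RLE scaling, 512 with no filter, 476 for any Gfra1 UMI and 17 for a Gfra1 UMI after thinning. Without the block, DESeq2 gave 15 and no filter 49. In Gfra1-negative cells DESeq2 gave 59, and the block gave 216 with a Gfra1 UMI after thinning and 235 with no filter. Leaving out 1 library gave 0 to 96 in all cells (96 without BU2, 33 without BU1), 0 to 25 in Gfra1+ cells and 0 to 32 in Gfra1-negative cells, where a lone library is assumed to vary like the other group. Between Gfra1+ and Gfra1-negative cells, the count of 3514 became 915 with no replicate block, 2185 under the marker rule and 1599 on thinned sums, and 0 (without CTRL2) to 3253 when 1 library was left out. The causes were not tested. Settings with shallow copies left out or 2 choices together were added after seeing the data.

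Of the log2 fold changes of members under an alternative, 569 kept direction and side of the threshold, 14 changed sign without a call on either side, 26 passed the threshold only under the alternative and 11 lost it. The sign changes were of Foxc2 (7), Pdx1 (4), Shisa6 (2) and Eomes (1). Of the differences in shares of cells (members and Gfra1), 192 moved by less than the spread and kept their sign, 9 did so with a change of sign, and 39 moved by more, 2 of them with a change of sign. Between BU and CTRL, Prrx2 passed in 7 alternatives of 18 in all cells, 4 of 22 in Gfra1+ and 2 of 22 in Gfra1-negative cells, and Barx1 in 5 of 18, 2 of 22 and 0 of 22. The block by itself changed no call of a member between BU and CTRL beyond Prrx2 and Barx1 in all cells. RLE scaling lowered the median of all genes in Gfra1-negative cells from 0.16 to 0.05 and left the direction of every member there as it was. With 2 libraries a group, the depth of experiment 1 (medians of 8051 and 9848 UMIs) limits Shisa6 and Pdx1 most.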
